A study of Mus musculus with 4 samples.

Results

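The copines are a family of 9 genes in the mouse, Cpne1 to Cpne9, and all 9 were found by symbol among the 37620 Ensembl identifiers of the count and FPKM tables. The family was chosen from results of these same libraries. Which values led to the choice is not recorded, but Cpne9 was known to be among the genes with the lowest ratios of Q175 over WT, so the comparison of genotypes is treated as the one that chose it. Genotype differences of the copines are given as a description with no p-value. The difference between the cell types was tested, and its p-values hold only if that difference played no part in the choice. Expression was measured by RNA sequencing in EGFP-positive neurons sorted from the striatum of male mice aged 5 to 6 months on a C57BL6/J background. All mice carried an EGFP reporter transgene from a bacterial artificial chromosome: Drd1-EGFP marked the direct-pathway neurons (D1) and Drd2-EGFP the indirect-pathway neurons (D2), so the reporter line and the cell type cannot be told apart. The Q175 groups were heterozygous for the zQ175 knock-in allele, an expanded CAG repeat in Htt that models Huntington's disease, and the WT groups were their littermates without it. Each of the 4 groups, WT and Q175 in either cell type, was represented by 1 library, and each library came from cells pooled over 4 animals. A difference between libraries therefore has no replicate check, and every interval given below covers counting error alone.

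Copines are soluble proteins that bind membrane phospholipids when calcium rises. Each carries a pair of C2 domains, the calcium-sensing fold also found in synaptotagmins and in protein kinase C, followed by an A domain related to that of integrins, which binds other proteins. Cpne6, also called N-copine, is the best known member in the brain: in mouse hippocampal neurons it moves to the membrane of dendritic spines with calcium and takes part in shaping them.

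Total counts lay between 39444117 and 42787068 per library. The sort was visible in the marker genes: Drd1 had 1300 and 771 normalized CPM (counts scaled to library size by TMM) in D1 WT and D1 Q175 and at 33.0 and 18.1 in D2 WT and D2 Q175, and Adora2a, an adenosine receptor gene of D2 neurons, at 7.79 and 3.47 in D1 and at 2173 and 1336 in D2. Htt, which carries the knock-in, stood at 159 and 116 CPM in D1 and at 154 and 121 CPM in D2, and its level does not check the genotype. Markers of other cells were low beside those of spiny neurons. The 5 oligodendrocyte markers summed to between 308 and 432 CPM, the 5 microglia markers to between 11.4 and 22.6 CPM, and the 6 markers of glutamatergic neurons to between 1.16 and 8.50 CPM. The 6 markers shared by spiny neurons of both pathways summed in WT to 12677 CPM (D1) and 13396 CPM (D2), and in Q175 to 7363 and 7749 CPM. In such bulk samples, fewer cells of a type and less RNA per cell cannot be told apart.

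Levels of different copines were compared as FPKM, which is scaled to transcript length. Cpne5 was the most abundant copine in all 4 libraries. It reached 197 FPKM in WT and 170 in Q175 among D1 neurons, and 181 and 162 FPKM among D2 neurons. These values made up 70.1% and 66.9% (D1) and 72.8% and 67.8% (D2) of the summed FPKM of the family. No other copine exceeded 26.9 FPKM in any library. Cpne8, Cpne6 and Cpne1 formed a middle group between 13.9 and 26.9 FPKM. Cpne9 belonged to that group in D1 WT, where it ranked 4 of 9 with 15.0 FPKM, next to Cpne1 with 13.9. Cpne2 lay between 6.22 and 9.30 FPKM, Cpne3 between 1.40 and 2.05, and Cpne7 and Cpne4 at or under 1.30 FPKM in every library.

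The order below Cpne5 differed little between libraries. Neighbours in the order whose counting intervals overlapped were Cpne9 and Cpne1 in D1 WT, Cpne8 and Cpne6 in both Q175 libraries, and Cpne8, Cpne1 and Cpne6 in D2 WT. Cpne2 and Cpne9 overlapped in D2 WT, and the pair Cpne7 and Cpne4 did so in every library but D2 Q175, where Cpne3 and Cpne4 overlapped. The other neighbours lay apart by more than counting error. Cpne9 ranked 6 of 9, below Cpne2, in D1 Q175 and in both D2 libraries, so its rank differed between genotypes in D1 only. The FPKM of the whole family summed to 281 in WT and 254 in Q175 for D1. Without Cpne5 the sums were 84.1 and 84.0 in D1, and 67.6 and 77.2 in D2.

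**Figure D1:**
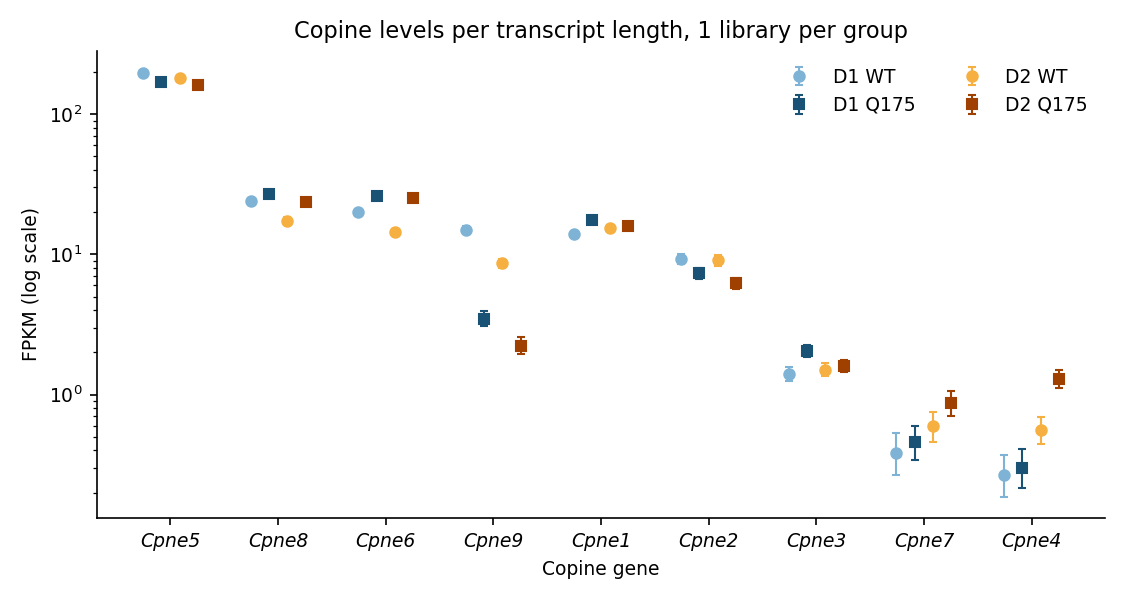
FPKM of each copine on a log axis in the 4 libraries (circles WT, squares Q175), ordered by level in D1 WT, with bars for the 95% counting interval. Cpne5 lies between 162 and 197 FPKM, far above the others, and Cpne9 has the widest gap between its Q175 points (3.47 and 2.24 FPKM) and its WT points (15.0 and 8.63 FPKM).

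Cpne9 (ENSMUSG00000030270) lies on chromosome 6. Its promoter is shown because it is the copine with by far the largest genotype difference, beside that of Cpne5, the most abundant copine and one with a small difference. Both are the 250 bases before the gene's start in RefSeq (GRCm38.p6), chr6:113282057-113282306 on the plus strand for Cpne9 and chr17:29237791-29238040 on the minus strand for Cpne5. The tables do not name their build, so these positions are those of RefSeq alone. Capitals mark CCAAT boxes (CCAAT) and GC boxes (GGGCGG), on either strand.
Cpne9: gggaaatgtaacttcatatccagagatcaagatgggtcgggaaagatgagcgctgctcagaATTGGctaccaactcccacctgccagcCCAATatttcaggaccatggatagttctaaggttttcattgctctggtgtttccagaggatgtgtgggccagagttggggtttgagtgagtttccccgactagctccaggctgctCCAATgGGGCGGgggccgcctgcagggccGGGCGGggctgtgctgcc
Cpne5: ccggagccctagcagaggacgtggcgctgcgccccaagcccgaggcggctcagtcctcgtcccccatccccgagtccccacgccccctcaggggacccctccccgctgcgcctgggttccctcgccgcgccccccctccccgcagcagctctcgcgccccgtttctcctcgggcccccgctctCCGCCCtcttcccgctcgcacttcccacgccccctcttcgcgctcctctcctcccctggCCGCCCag

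The Cpne9 window held 3 CCAAT boxes, which begin 189, 162 and 47 bases before the start, and 2 GC boxes, which begin 41 and 18 bases before it. The Cpne5 window held 2 GC boxes and no CCAAT box. Among 32851 promoter windows of the same length, 33.8% held a CCAAT box and 32.7% a GC box. These shares cover any number of copies, and windows with several copies were not counted separately. Also searched on both strands were the TATA box (TATAAA, in 12.4% of windows), the cyclic AMP response element (TGACGTCA, 1.55%), its core (TGACG, 17.8%, which the whole element contains), the Egr site (GCGTGGGCG, 0.536%) and the E-box (CACGTG, 6.02%), and none of these was in either window. The Cpne9 window was 56.4% G and C with 7 CG pairs, close to the medians of 52.4% and 6 over all windows, and the Cpne5 window was 76.4% G and C with 27 CG pairs. Windows were matched for 6 of the 9 copines. The windows of Cpne2 (74.4% G and C) and Cpne8 (74.4%) were rich in G and C like that of Cpne5, and that of Cpne1 (54.0%) was near the median. Cpne4 had 2 windows, with 59.6% and 56.8% G and C. The former held a GC box and an E-box, and the latter a CCAAT box.

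The comparison of Q175 with WT asked how the knock-in changes gene expression in each cell type. Cpne9 was lower in both. It had 1213 counts (31.7 CPM) in D1 WT and 260 counts (6.22 CPM) in D1 Q175, and 679 counts (17.1 CPM) in D2 WT and 202 counts (4.61 CPM) in D2 Q175. Both Q175 libraries lay below both WT libraries. The difference was 5.07-fold in D1, a log2 ratio of -2.34 (95% exact conditional binomial interval -2.55 to -2.16), and 3.68-fold in D2, a log2 ratio of -1.88 (-2.12 to -1.66). Among the genes with at least 5 CPM in either library, Cpne9 had the ratio ranked 4 from the lowest of 10926 in D1 and 8 from the lowest of 10961 in D2. These ranks belong to the comparison on which the family is taken to have been chosen. The edgeR estimate over both cell types was -2.12 ± 0.13 log2 units (SE).

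The log2 ratio in D2 was nearer 0 by 0.46 log2 units, with a counting interval of 0.17 to 0.76, and with 1 library per group this difference was not tested. The WT level also differed, so that the cell types were nearer each other in Q175 (1.35-fold apart) than in WT (1.85-fold apart). Of the 6 markers shared by spiny neurons, all 6 fell in the same edgeR fit. Their summed CPM ratio was nearer 1 than that of Cpne9 in both cell types, and whether their change has a part in that of Cpne9 was not tested.

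**Figure D2:**
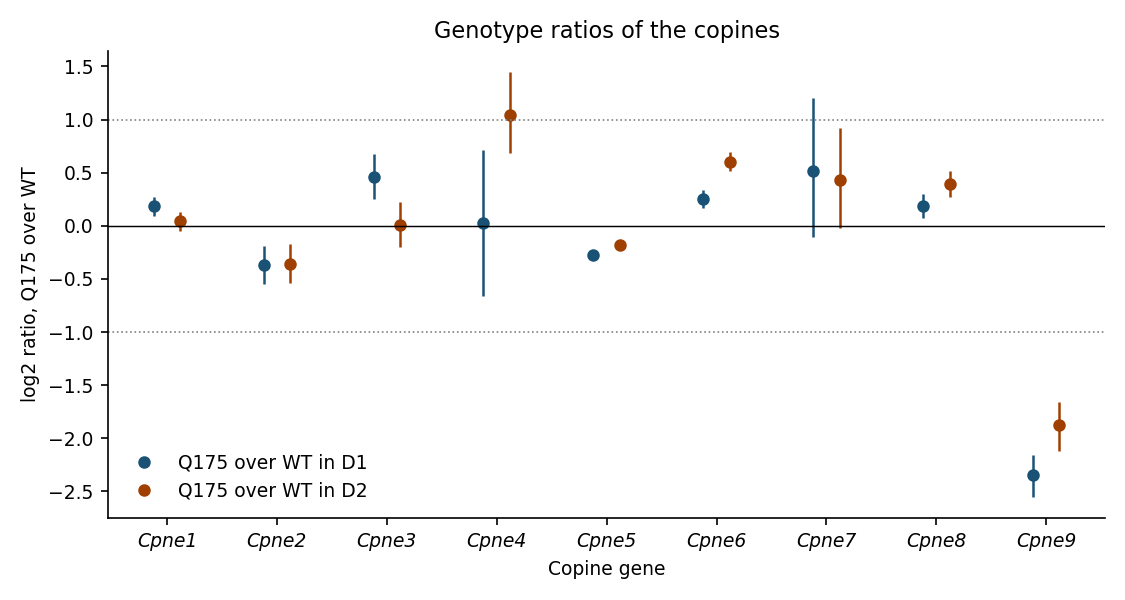
Log2 ratio of Q175 over WT for each copine in D1 and D2 neurons, with bars for the 95% counting interval and dotted lines at 2-fold. Cpne9 stands alone near -2.34 and -1.88, and the other copines lie between -0.37 and 1.04.

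Of the 7 copines with at least 5 CPM in either library, Cpne9 alone was at least 2-fold apart between the genotypes, 1 lower in D1 and 1 lower in D2. Among all genes compared, 0.705% were at least 2-fold lower and 1.12% higher in D1 Q175, and 1.06% were lower and 1.35% higher in D2 Q175. Since the family is treated as chosen on this comparison, nothing is read from these counts. All 9 copines passed the filter on low counts of the edgeR fit over both cell types, in which 13.8% of all 15668 genes tested were called higher and 14.0% lower in Q175. Higher genes made up 49.6% of all calls, and 67.3% when libraries were scaled by their totals, 66.9% with limma on FPKM and 35.9% with the DESeq2 Wald test. The median log2 ratio of the 7 copines compared was 0.18 in D1 and 0.0095 in D2, beside -0.04 and -0.03 over all genes compared.

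Cpne6 was higher in both Q175 libraries. Its level was 51.9 CPM in WT against 61.7 in Q175 among D1 neurons, and 39.7 against 60.5 CPM among D2 neurons, so that the Q175 libraries were nearly level and the WT libraries lay below them. Its log2 ratio was 0.25 (0.16 to 0.34) in D1 and 0.60 (0.51 to 0.70) in D2. The 6 markers of glutamatergic neurons, a class in which Cpne6 is abundant, summed to 5.65 CPM (WT) and 8.50 CPM (Q175) in D1 neurons, where 5 and 3 of the 6 stood under 1 CPM. In D2 neurons they summed to 1.16 and 2.47 CPM, and all 6 stood under 1 CPM in both libraries. Their part in the Cpne6 values was not tested. Cpne8 was also higher in Q175 within each cell type, at 30.1 CPM in WT against 34.3 in Q175 (D1) and at 22.2 against 29.2 CPM (D2). Its log2 ratios were 0.19 (0.08 to 0.30) and 0.39 (0.27 to 0.52). Across cell types its genotypes overlapped, since D2 Q175 lay below D1 WT.

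Cpne5 and Cpne2 were lower in both Q175 libraries. Cpne5 was at 449 CPM in WT against 371 in Q175 (D1), and at 421 against 371 CPM (D2). The Q175 values were close to each other and below both WT values, and the log2 ratios were -0.27 (-0.31 to -0.24) in D1 and -0.18 (-0.21 to -0.15) in D2. Cpne2 was at 15.0 against 11.6 CPM (D1) and at 13.5 against 10.5 CPM (D2), with log2 ratios of -0.37 (-0.55 to -0.19) and -0.36 (-0.54 to -0.18). For both genes, as for Cpne9 and Cpne6, the WT and Q175 libraries did not overlap. Those of Cpne1 and Cpne3 did not overlap either, but their intervals in D2 included 0 (-0.04 to 0.13 and -0.20 to 0.22). The share of all genes separated in this way was not counted, so nothing is read from it. The widest difference among Cpne2, Cpne5, Cpne6 and Cpne8 was the 1.52-fold one of Cpne6 in D2.

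Cpne1, Cpne3, Cpne4 and Cpne7 had an interval that included 0 in at least 1 cell type. Cpne1, which in mouse takes part in the differentiation of neural progenitors, was at 47.2 CPM in WT against 53.7 in Q175 (D1) and at 49.1 against 50.6 CPM (D2). Cpne3, whose human protein binds the receptor ERBB2, was at 8.11 against 11.2 CPM (D1) and at 8.76 against 8.81 CPM (D2), and D1 Q175 was the one library apart from the rest, at a log2 ratio of 0.46 (0.25 to 0.67) over D1 WT. Cpne4, known as a gene of mouse retinal ganglion cells, had 36 counts in WT against 40 in Q175 (D1), and 84 against 193 counts (D2). Its log2 ratio was 0.02 (-0.66 to 0.72) in D1 and 1.04 (0.68 to 1.45) in D2. The gap between these ratios, 1.02 log2 units with a counting interval of 0.27 to 1.77, was not tested, and Cpne4 stayed under 5 CPM in every library. Cpne7, known from the formation of dentin in mouse, had 34 against 54 counts (D1) and 66 against 99 counts (D2), and both of its intervals included 0.

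The comparison of D2 with D1 neurons was tested in the edgeR fit to all 4 libraries, with genotype as a second term. Of 9 copines, 2 were higher in D2 (Cpne4 and Cpne7) and 2 lower (Cpne8 and Cpne9), where 6.71% of the 15668 genes were called higher and 6.71% lower. The 4 that passed were thus a scarce pair, higher in D2, and a more abundant pair, higher in D1. Of the latter, Cpne9 was at 15.0 (D1) and 8.63 FPKM (D2) in WT but at 3.47 and 2.24 FPKM in Q175. The Cpne4 estimate was 1.74 ± 0.26 log2 units above D1 (SE), with an edgeR adjusted p of 2.73e-05, and D2 was higher in both genotypes. Its level in D2 was 2.18-fold that in D1 in WT and 4.43-fold in Q175. Cpne9 was lower in D2 by an estimate of -0.70 ± 0.13 log2 units (edgeR adjusted p = 0.000352; lower in both genotypes).

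Cpne7 exceeded its D1 level by 0.86 ± 0.26 log2 units (edgeR adjusted p = 0.0282), with 66 against 34 counts in WT and 99 against 54 counts in Q175. Cpne8 was lower in D2, with an estimate of -0.32 ± 0.10 (edgeR adjusted p = 0.0279), and its log2 ratios were -0.44 (-0.57 to -0.31) in WT and -0.23 (-0.34 to -0.12) in Q175. Cpne6 did not pass, at -0.19 ± 0.09 (edgeR adjusted p = 0.178). It was 1.31-fold lower in D2 WT than in D1 WT, and in Q175 the log2 ratio was -0.03 (-0.11 to 0.05). Cpne5, Cpne1, Cpne2 and Cpne3 had estimates between -0.14 and -0.01 and did not pass (edgeR adjusted p from 0.497 to 0.981).

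The calls for Cpne7 and Cpne8 were lost with the DESeq2 Wald test (adjusted p = 0.525 and 0.224), without the filter on low counts (edgeR adjusted p = 0.108 and 0.149) and with limma on FPKM (adjusted p = 0.228 and 0.137), and that of Cpne7 when scaled by library totals (edgeR adjusted p = 0.0502). Cpne9 lost its call without the filter (edgeR adjusted p = 0.0573) and Cpne4 with limma on FPKM (adjusted p = 0.0888), and each passed with the DESeq2 Wald test (adjusted p = 0.0178 and 0.0118). Of the 7 copines with at least 5 CPM, none was at least 2-fold apart between the cell types in WT, where 0.867% of all genes were higher and 1.24% lower in D2, or in Q175, where these shares were 0.764% and 1.08%.

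**Figure D3:**
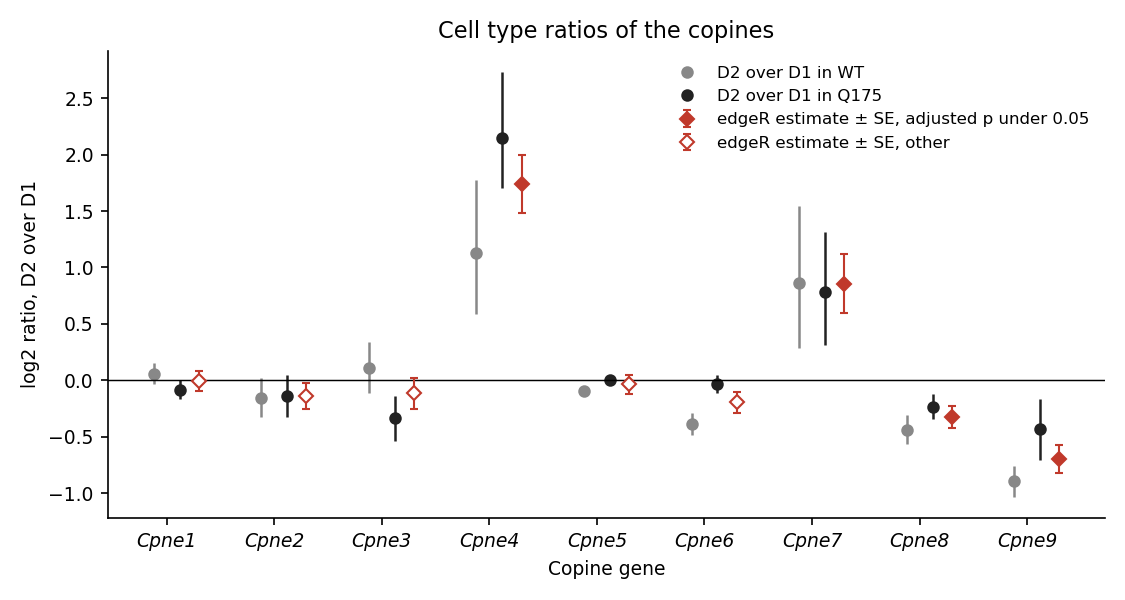
Log2 ratio of D2 over D1 for each copine in WT (grey) and Q175 (black), with bars for the 95% counting interval, and the edgeR estimate over both genotypes with its SE (red diamonds, filled where the adjusted p was under 0.05). Cpne4 (1.74) and Cpne7 (0.86) lie above 0, Cpne8 (-0.32) and Cpne9 (-0.70) below, and the remaining 5 estimates lie between -0.19 and -0.01.

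The protein-coding genes around Cpne9 on chromosome 6 did not share its pattern. On one side lie Mtmr14, a phosphoinositide phosphatase gene, and Lhfpl4, whose product serves GABA-A receptor clustering at inhibitory synapses. On the other side lie Brpf1, a gene of a histone acetyltransferase complex, and Ogg1, a DNA repair glycosylase gene that removes oxidized guanine. Mtmr14 was at 22.0 CPM in WT against 26.5 in Q175 (D1) and at 24.9 against 27.3 CPM (D2), and Brpf1 at 54.7 against 52.6 CPM (D1) and 46.6 against 49.0 CPM (D2). None of the 4 neighbours passed the edgeR genotype test (adjusted p from 0.123 to 0.925), and their estimates lay between -0.13 and 0.21 log2 units.

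The genes most like Cpne9 were sought among 10450 genes with at least 5 CPM in any library, leaving out mitochondrially encoded genes and those with only a provisional name, by the Euclidean distance of log2 CPM centred on each gene's mean over the 4 libraries. The nearest was Ddit4l, whose product restrains mTOR signalling, at a distance of 0.43 log2 units. It was at 56.6 CPM in WT against 10.1 in Q175 (D1) and at 31.1 against 5.78 CPM (D2), so that like Cpne9 it was lower in Q175 and lower in D2. Next were Tmprss6, a membrane serine protease gene (0.52), Htr1b, a serotonin receptor gene (0.65), Phex, a metallopeptidase gene (0.71), and Plekhg4 (0.71). Ryr1, a calcium release channel gene (0.72), Shisa2 (0.73) and Clspn, a replication checkpoint gene (0.82), completed the 8. With a minimum of 1 CPM, 6 of these 8 genes were found again. When likeness was the Pearson correlation over the same 4 libraries, which ignores the size of a change, 0 of the 8 were found again.

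**Figure D4:**
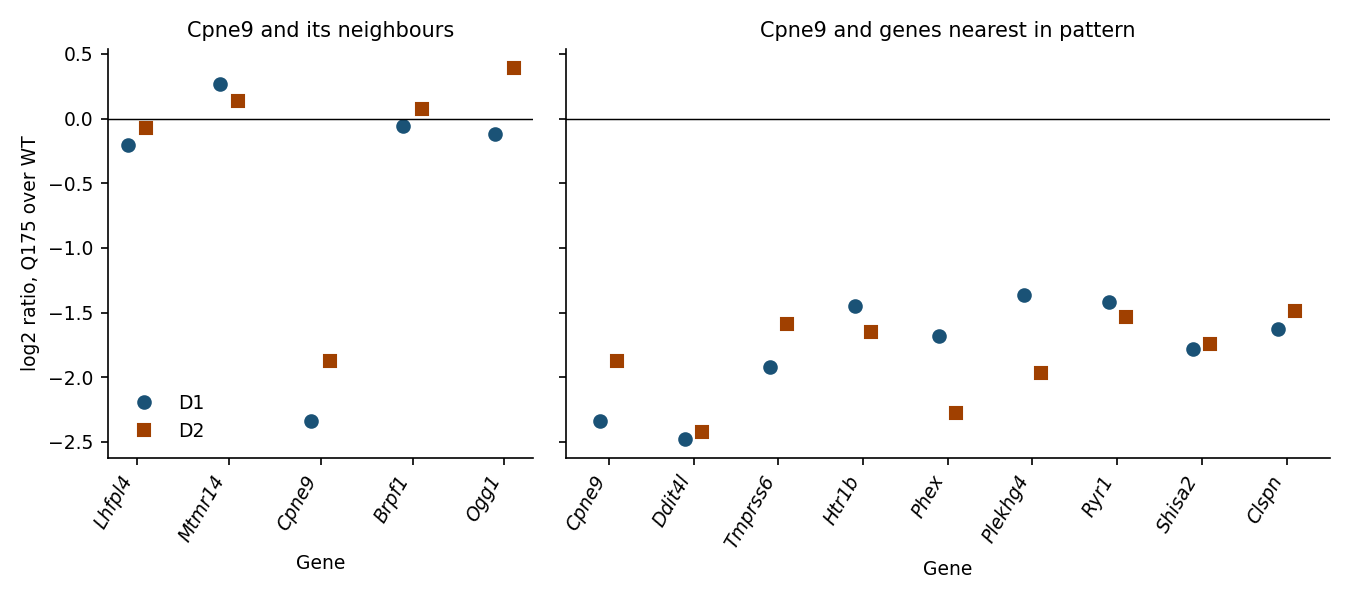
Log2 ratio of Q175 over WT in D1 (circles) and D2 (squares), for Cpne9 among its neighbours in chromosomal order (left) and for Cpne9 and the 8 genes nearest to it in pattern, from the nearest on the left (right). The neighbours lie between -0.20 and 0.39, and the 8 genes chosen for their likeness between -1.36 and -2.48.

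The other copines over 5 CPM had closer matches, but this distance grows with the size of a change, and theirs were smaller. Nearest to Cpne5 were Mfn2, a gene of mitochondrial fusion (0.01 log2 units), and Bcorl1 (0.02). Nearest to Cpne6 were Iglon5, a cell adhesion gene (0.05), and Tubb4a, a tubulin gene (0.08). Nearest to Cpne8 were Rbm43 (0.02) and Grk2, a receptor kinase gene (0.04), to Cpne2 Arhgap32 (0.02), to Cpne1 BC005537 (0.01) and Nemf (0.01), and to Cpne3 Pcsk1 (0.02) and Zfp182 (0.04).

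Other proteins with C2 domains, such as synaptotagmins and protein kinase C, were taken as a list of 46 genes, of which 43 were tested. Not all of them depend on calcium. In the edgeR genotype test 20 fell (46.5%, beside 14.0% of all genes) and 8 rose (18.6%, beside 13.8%), and the median estimate was -0.22 log2 units, beside 0.0043 over all genes. All 6 shared spiny neuron markers fell in the same fit, and mitochondrially encoded genes took 6.06% (D1) and 6.49% (D2) of counts in WT against 8.98% and 11.1% in Q175. The part of either in the list's values was not tested. Syt9, which encodes a calcium sensor of vesicle release, fell: WT against Q175 was 25.5 against 12.9 CPM (D1) and 18.4 against 10.6 CPM (D2), an estimate of -0.88 ± 0.11 log2 units (edgeR adjusted p = 1.95e-06). Syt10 fell too (-1.32 ± 0.38, edgeR adjusted p = 0.0102) but stayed under 1 CPM in every library. Syt13 rose by 0.97 ± 0.23 log2 units (edgeR adjusted p = 0.0027), with WT against Q175 at 1.75 against 2.85 CPM (D1) and 1.16 against 2.76 CPM (D2). Doc2a rose by 3.14 ± 0.72 (edgeR adjusted p = 0.00192) at levels under 0.4 CPM. Between the cell types, 10 of the 43 were lower in D2 (23.3%, beside 6.71%) and 1 was higher (2.33%, beside 6.71%).

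Of 14 genes whose proteins are reported to bind or act with copines, such as Rac1 and Ntrk2, the TrkB receptor gene, 1 rose and 1 fell in the edgeR genotype test (7.14% each, beside 13.8% and 14.0% of all genes), with a median of -0.02. Between the cell types 2 were lower in D2 (14.3%, beside 6.71%). Rdx, the radixin gene, rose by 0.28 ± 0.10 log2 units (edgeR adjusted p = 0.0401), and Sptbn1, a spectrin gene, fell with an estimate of -0.31 ± 0.09 (edgeR adjusted p = 0.0114). Of 21 tested calcium sensor and annexin genes 5 rose (23.8%, beside 13.8% of all genes) and 6 fell (28.6%, beside 14.0%), with a median of 0.03. Between the cell types 3 were higher in D2 (14.3%, beside 6.71%) and 6 lower (28.6%, beside 6.71%). Vsnl1, a neuronal calcium sensor gene, rose, with WT against Q175 at 19.6 against 48.5 CPM (D1) and 7.14 against 22.7 CPM (D2), by 1.48 ± 0.11 log2 units (edgeR adjusted p = 8.97e-10). S100b, a calcium-binding protein gene expressed by glia, rose by 0.68 ± 0.15 (edgeR adjusted p = 0.00137). Its level in WT against Q175 was 3.95 against 6.49 CPM (D1) and 5.71 against 8.84 CPM (D2). Of the 5 oligodendrocyte markers 3 rose in the same fit and none fell, with summed levels of 308 and 334 CPM in WT and of 359 and 432 CPM in Q175. Of the 5 astrocyte markers 1 rose and 0 fell, with sums of 27.3 and 34.2 CPM in WT and of 32.6 and 47.2 CPM in Q175. The part of these markers in the S100b values was not tested. Hpca, the hippocalcin gene of spiny neurons, fell, with WT against Q175 at 2778 against 1690 CPM (D1) and 3986 against 2527 CPM (D2) (-0.68 ± 0.10, edgeR adjusted p = 1.37e-05), and S100a10, an annexin partner gene, fell with an estimate of -0.78 ± 0.14 (edgeR adjusted p = 0.000165).

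The copine counts could be told apart by sequence. No run of 50 bases, the length of a read, was shared between the transcripts of different copines in GENCODE M21. For Cpne2, Cpne4, Cpne6 and Cpne9 no such run occurred in any other gene. For Cpne3, Cpne5, Cpne7 and Cpne8 between 0.33% and 4.40% of runs did. Cpne1 is the exception: 74.3% of its runs occur in other genes, mainly Gm28036, which shares 83.3% of its exon bases on the same strand. Rbm12 shares 8.96% of them. These overlaps were measured separately and may cover the same bases. The level of Cpne1 is therefore uncertain, and Gm28036 was not analysed here.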

How the data were processed

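The authors deposited expected counts (estimated counts per Ensembl gene, without normalization) and FPKM, scaled by them to length and library size. The units were read from the file titles and values: 18.7% of counts were not exactly whole. Per the submitters' processing notes, CASAVA 1.8.2 was used. The aligner, counting program, annotation and build: not given in the sources used here. Symbols matched 32897 of 37620 identifiers.

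Counts were rounded and scaled by TMM in edgeR 4.0.16 (R 4.3.3). 1 CPM stood for 38.2 to 43.8 counts. Log2 ratios used a prior count of 2, with 95% exact conditional binomial intervals. Reads are not independent molecules, so intervals cover counting error only. FPKM intervals scale exact Poisson intervals of the counts. The edgeR quasi-likelihood test (two-sided, filterByExpr, cell type and genotype as additive terms, 1 residual degree of freedom, Benjamini-Hochberg adjustment over 15668 genes at 0.05) gave effects shared by both genotypes or cell types. Its spread is the departure from additivity, moderated across genes, and nothing in the labels gives a batch. On simulated data for the cell type test over 15668 genes, 83% of 2-fold and 72% of 1.5-fold changes were recovered. The simulation gave every gene the same dispersion, with no genotype effect and no departure from additivity. Its rates may therefore not hold for the real libraries.

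DESeq2 1.42.0 and limma 3.58.1 (log2 of FPKM plus 0.1, after an FPKM of 0.1 in any library) were alternatives. All 9 copines, the 8 genes nearest to Cpne9, 2 nearest to each other copine over 5 CPM, up to 4 called genes per list and the neighbours of Cpne9 were named by rule. One gene that this rule names is not reported here. Members and lists were chosen with earlier results of these data known. Promoters came from RefSeq (GRCm38.p6), and overlaps from GENCODE M21.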

Additional observations from a re-analysis of the deposited data

How the results depend on the processing

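Limits first: each group was 1 pooled library, so genotype ratios carry no replicate error, and cell type goes with reporter line. Counts of 34 to 193 for Cpne4 and Cpne7 limit their precision. No paired analysis was possible because each group had 1 library and the labels give no replicate numbers.

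None of the 36 copine ratios reversed under the 6 other scalings, prior counts or FPKM settings where its interval excluded 0. All 36 stayed within their intervals with DESeq2 size factors, a prior count of 0.5 or mitochondrially encoded genes left out, 32 did with library totals, 29 with FPKM and a pseudocount of 0.1, and 24 with a pseudocount of 1. The Cpne9 ratio ranged between -2.35 and -1.84 (D1) and between -1.90 and -1.57 (D2). The median ratio of all 9 copines in D1 moved from 0.18 to 0.28 with library totals and to 0.074 with FPKM and a pseudocount of 1. The median in WT between cell types moved from -0.09 to -0.038 with FPKM and a pseudocount of 0.1 and to -0.035 with a pseudocount of 1.

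The cell type test called 2103 genes and 4 copines. It called 850 and 2 with the DESeq2 Wald test, 663 and 1 without filter, 608 and 1 with limma on FPKM, and 77 and 0 without genotype in the model, where 1028 genes had an unadjusted edgeR p under 0.05. The genotype test called 4351 genes, against 1937 with DESeq2, 2182 without filter, 2284 with limma on FPKM and 4 without cell type. Leaving mitochondrially encoded genes out of either fit, chosen after seeing the data, changed no copine call of the cell type test. With a minimum of 20 CPM, the genes at least 2-fold apart fell from 199 to 63 for genotype in D1 and from 264 to 89 in D2. Between cell types they fell from 228 to 106 in WT and from 203 to 85 in Q175. The genes compared fell by a smaller part, from 10926 to 7992 for genotype in D1 and from 10838 to 7919 between cell types in WT. Of the 8 genes nearest to Cpne9, 0 were shared with a search by Pearson correlation. The cause of the changes in these counts was not tested.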

Other observations

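The deposited counts and FPKM together give the transcript length by which the authors' FPKM divided each copine in each library, taken as the count over FPKM and the library total. For Cpne3 it was almost constant, between 5600 and 5648 bases. For Cpne9 it was 2047 bases in WT against 1862 in Q175 (D1), and 1920 against 2109 bases (D2), and the exons of the gene cover 7874 bases in GENCODE M21. For Cpne2 it was 1562 against 1636 bases (D1) and 1442 against 1729 bases (D2), and for Cpne8, whose exons cover 4164 bases, between 1225 and 1327. For Cpne6 it was 2517 against 2463 bases (D1) and 2663 against 2434 bases (D2). FPKM and count ratios of a gene can differ by these lengths and by scaling, since the count ratios here use TMM and FPKM use library size. Whether transcript forms differ between the libraries was not tested.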
